A study of Mus musculus with 3 samples.

Results

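The 5 Reg genes Reg1, Reg2, Reg3a, Reg3b and Reg3g and the 5 chemokine genes Cxcl1, Cxcl2, Cxcl10, Ccl2 and Ccl20 were examined for accessible chromatin in dissociated mouse islet cells. These 10 genes, among 22359 protein-coding genes, were chosen by name as secreted stress and inflammatory factors of the islet. Every peak overlapping a gene body or the 20 kb on either side of it was taken, which gave 6 of 60898 peaks in the WT list, 25 of 150354 in the 1 week list and 25 of 151725 in the 5 week list. ATAC-seq, in which a transposase cuts and tags DNA that is not wrapped in nucleosomes, was performed on 1 library from WT islets, 1 from Taf4 KO islets at 1 week and 1 from Taf4 KO islets at 5 weeks after inactivation. Taf4 is a subunit of TFIID, the factor that recruits RNA polymerase II to promoters. In the KO animals, loxP-flanked Taf4 alleles were deleted by a tamoxifen-inducible Cre recombinase under the Ins1 promoter, so the deletion was directed to beta cells and the other islet cells kept the gene. The study's methods describe its controls as tamoxifen-injected Cre carriers with intact Taf4 alleles, whereas the label of the control library reads only wild type. The strain was labelled C5LBl6 in all 3 samples, and how many animals each library held was not given in the sources used here.

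Reg genes encode small secreted C-type lectins that acinar cells make in large amounts during pancreatic injury, and islets are known to switch them on under inflammatory or regenerative stress. Reg3b and Reg3g proteins bind and kill bacteria in the gut. Chemokines are secreted proteins that draw leukocytes along a gradient: Cxcl1 and Cxcl2 attract neutrophils through Cxcr2, Cxcl10 attracts activated T cells through Cxcr3, Ccl2 attracts monocytes through Ccr2, and Ccl20 attracts Ccr6-bearing lymphocytes. Chemokine promoters are textbook targets of NF-kB, and Cxcl10 of interferon-responsive IRF and STAT factors.

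With 1 library a group there was no spread between animals, and every difference below is one between libraries without a test. In such bulk material a greater share of cells with an open site and a site more open in each cell cannot be told apart. Both KO lists held more peaks than the WT list, by 2.47 times at 1 week and 2.49 times at 5 weeks. The background depth recovered from them was 6.45 and 9.38 reads against 3.66 in WT, that is 1.76 and 2.57 times. Peak height is given as the caller's fold over local background and as -log10 q, and a peak's percentile is its place by -log10 q within its own list, 100 being the strongest. Which exons of Taf4 were deleted is not in the labels, so its promoter checks no label; it carried a peak in each list, its -log10 q being 8.53, 1.32 and 8.01 in the order WT, 1 week and 5 weeks. Beta cell identity of the material was visible in all lists, where 8 of 8 beta cell markers, Ins1 and Ins2 included, had a promoter peak. Of 11 immune cell markers 1, 2 and 2 had one in the WT, 1 week and 5 week lists, and Cd68, Cd3e, Itgam, Lyz2, Aif1 and Cd14 had none in any list.

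The promoters on which the results turn are shown for the 250 bases before the annotated start, read from NCBIM37, the same assembly as mm9, in the direction of transcription. Those of Cxcl1 (chr5:91320017-91320266, plus strand) and Cxcl10 (chr5:92777916-92778165, minus strand) carried a peak in every list. Those of Cxcl2 (chr5:91332647-91332896, plus strand) and Reg3g (chr6:78418869-78419118, minus strand) had a peak touching their promoter window in both KO lists only. That of Reg3b (chr6:78320629-78320878, plus strand) had one at 5 weeks only, and this peak and the 5 week Reg3g peak lay past the start, outside the bases shown. That of Ccl2 (chr11:81848823-81849072, plus strand) is shown because it holds NF-kB letters, as Cxcl1, Cxcl2 and Reg3g do, and STAT letters, as Reg3b does, without a promoter peak. Capitals mark exact matches, on either strand, to GGGNNTTTC (NF-kB), TTCNNNGAA (STAT), GAAANNGAA (IRF) or TGANTCA (AP-1). The letters of a TATA box, searched for as TATAAA, are in capitals too.
Cxcl1: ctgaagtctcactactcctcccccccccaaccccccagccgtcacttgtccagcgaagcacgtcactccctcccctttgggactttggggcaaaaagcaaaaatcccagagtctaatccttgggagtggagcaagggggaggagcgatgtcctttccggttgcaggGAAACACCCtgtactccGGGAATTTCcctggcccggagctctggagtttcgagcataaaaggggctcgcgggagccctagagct
Cxcl2: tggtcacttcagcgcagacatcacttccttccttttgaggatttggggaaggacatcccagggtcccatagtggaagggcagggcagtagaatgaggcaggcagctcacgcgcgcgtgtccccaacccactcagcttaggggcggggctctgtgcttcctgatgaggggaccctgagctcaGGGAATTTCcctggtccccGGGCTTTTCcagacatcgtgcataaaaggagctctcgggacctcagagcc
Cxcl10: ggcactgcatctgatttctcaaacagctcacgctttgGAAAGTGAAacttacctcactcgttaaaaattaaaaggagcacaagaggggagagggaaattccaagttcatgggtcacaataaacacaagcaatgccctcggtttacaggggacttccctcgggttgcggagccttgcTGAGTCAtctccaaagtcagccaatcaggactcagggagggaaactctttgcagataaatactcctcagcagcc
Reg3g: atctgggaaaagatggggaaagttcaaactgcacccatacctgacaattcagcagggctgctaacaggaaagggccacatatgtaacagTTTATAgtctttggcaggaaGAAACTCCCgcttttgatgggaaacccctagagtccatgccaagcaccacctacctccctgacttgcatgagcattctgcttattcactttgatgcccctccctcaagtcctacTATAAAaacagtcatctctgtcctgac
Reg3b: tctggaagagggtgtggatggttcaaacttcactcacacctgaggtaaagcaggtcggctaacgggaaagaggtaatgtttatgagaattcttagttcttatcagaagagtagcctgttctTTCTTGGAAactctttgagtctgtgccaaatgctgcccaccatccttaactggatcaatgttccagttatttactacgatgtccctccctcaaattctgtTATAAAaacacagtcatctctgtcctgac
Ccl2: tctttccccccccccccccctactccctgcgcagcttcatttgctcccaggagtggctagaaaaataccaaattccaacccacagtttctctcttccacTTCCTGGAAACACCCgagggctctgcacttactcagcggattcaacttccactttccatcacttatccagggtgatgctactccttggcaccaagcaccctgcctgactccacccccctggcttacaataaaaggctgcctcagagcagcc

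The NF-kB letters occurred in 5 of 10 members, 2 times each in Cxcl1 and Cxcl2 and once each in Reg3g, Ccl2 and Ccl20, and in 3.62% of all protein-coding promoters of the same length. In Cxcl1 and Cxcl2 the same 9 bases, GGGAATTTC, began 67 and 69 bases before the start. The STAT letters were present in Reg3b and Ccl2 and in 6.82% of all promoters. In Ccl2 the STAT match overlapped the NF-kB match, so its capitals run together. The IRF letters were found in Cxcl10 alone among the members and in 7.62% of all promoters, and the AP-1 letters in Reg1 and Cxcl10 and in 5.89%. A TATA box lay between 22 and 30 bases before the start of Reg1, Reg2, Reg3b and Reg3g, beside 12.3% of all promoters with those letters anywhere in the window, and Reg3g held the letters a further time on the other strand. Matches are letters in a window and were not read as bound sites. Only these exact letters were searched for, so a promoter without a match, such as Cxcl10 for NF-kB, was not shown to lack such a site. The members' promoters had a median GC of 47.6% against 54.4% over all genes and a median of 3 CpG against 9, but they were split. The Reg promoters held 37.2% to 47.2% GC, and Cxcl10 and Ccl20 48% and 51.2%. Those of Cxcl1, Cxcl2 and Ccl2, at 58.8%, 59.2% and 54.8%, lay above the median of all genes. Cxcl1 and Cxcl2 held 10 and 9 CpG.

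Promoter peaks, defined as peaks touching the window from 1000 bp upstream to 100 bp downstream of a start, numbered 2 among the 10 genes in WT, then 4 and 6 in the KO lists in order of time. Over all protein-coding genes the shares were 59.0%, 55.9% and 65.6%, so the members stood below genes at large in WT and near them at 5 weeks. Cxcl1 and Cxcl10 had a promoter peak in all 3 lists. Cxcl2 and Reg3g had one in both KO lists and not in WT, and Reg1 and Reg3b had one at 5 weeks only. Reg2, Reg3a, Ccl2 and Ccl20 had none in any list. Of the 8 members without a WT promoter peak, 2 gained one at 1 week, where 13.3% of all such genes did, 4 gained one at 5 weeks, where 18.9% did, and 2 gained one in both, where 8.28% did. Most members lie in AT-rich surroundings, and 7 of 10 fell in the lowest of 5 equal classes of genes by GC content of the surrounding 1 Mb. In that class 33.8%, 46.9% and 45.4% of genes had a promoter peak in the WT, 1 week and 5 week lists. The 2 of 10 in WT was thus nearer to the class than to genes at large. Gained shares in the class were 21.0%, 18.1% and 11.6%. A count of 2 or 4 among 8 genes is too small to be set apart from such shares.

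**Figure D1:**
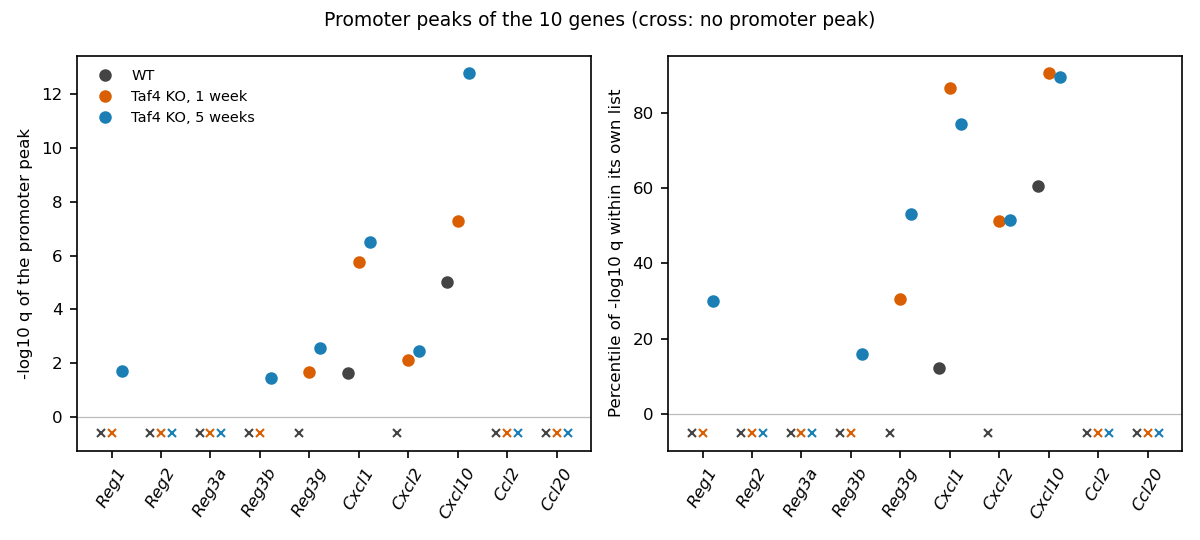
Promoter peaks of the 10 genes in each list. The left panel plots the -log10 q of the promoter peak and the right panel its percentile by -log10 q within its own list, each dot being the value of 1 library (grey, WT; orange, Taf4 KO at 1 week; blue, Taf4 KO at 5 weeks) and each cross a gene with no promoter peak. Cxcl10 is the highest member in every list, Cxcl1 stands at the 12.3 percentile in WT and at 86.6 and 77.0 in the longer KO lists, and the Reg promoter peaks stay at or below a -log10 q of 2.55.

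Cxcl1, a neutrophil attractant, differed more in percentile between lists than Cxcl10, the other member with a WT promoter peak. Its gene (ENSMUSG00000029380) occupies chr5:91320267-91322141 on the plus strand. The WT peak over its start, chr5:91320185-91320680, was 496 bp wide with fold 2.68 and -log10 q 1.64, which placed it at the 12.3 percentile of its list. At 1 week the peak, chr5:91319990-91320523, reached fold 3.22 and -log10 q 5.75, at the 86.6 percentile. The 5 week peak, chr5:91319988-91320699, was 712 bp wide, with fold 3.02 and -log10 q 6.49, at the 77.0 percentile. Both KO peaks thus reached farther upstream than the WT peak and stood higher in every measure given.

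The recovered pileup behind these Cxcl1 values was about 11.5 reads over a background of 3.67 in WT, 27.9 over 7.98 at 1 week and 34.1 over 10.6 at 5 weeks. The fold does not grow with depth in the way a q does. It is taken after a read is added to both pileup and background, however, which lowers it most in WT, the shallowest list. The fold of Cxcl1 was 1.20 and 1.12 times its WT value, and part of that rise comes from the added read. Without that read, the pileup over background given above rose less at 1 week and was close to WT at 5 weeks. Over all genes with a promoter peak in both lists the median ratio was 0.813 and 0.903. Once the KO pileup and background had been divided by the depth ratio, the -log10 p of the Cxcl1 peak was 5.14 at 1 week and 4.11 at 5 weeks against 3.65 in WT. Before scaling it was 8.07, 8.58 and 3.65, so both KO values stayed above WT while the 5 week value fell below that of 1 week and came close to WT. The percentile also shrank in lists made more comparable. With the lists cut to equal numbers it was 66.9 at 1 week and 42.8 at 5 weeks, against 12.3 in WT. Among the peaks that depth scaling kept, still ranked by their unscaled -log10 q, it was 68.0 and 32.9.

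Cxcl10, the interferon-induced T cell attractant, had the strongest promoter peak of the 10 genes in each list. The gene (ENSMUSG00000034855, chr5:92775664-92777915, minus strand) sits inside an intron of Art3. Its promoter peak spanned chr5:92777790-92778141 in WT, with fold 3.49 and -log10 q 5.02, at the 60.6 percentile. At 1 week the peak, chr5:92777776-92778146, reached fold 3.72 and -log10 q 7.27, at the 90.4 percentile. At 5 weeks it spanned chr5:92777723-92778177, with fold 4.01 and -log10 q 12.8, at the 89.5 percentile. Positions differed little, and the midpoint stayed within 51 bp of the start in each library. The fold was 1.07 and 1.15 times the WT value. After depth scaling the -log10 p was 7.27 for WT against 6.11 and 6.78 for the KO lists, so the higher KO values of Cxcl10 were not present on that scale.

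Both members with a WT promoter peak therefore had a higher fold in both KO lists, whereas 16.7% of the 11287 genes with a peak in WT and at 1 week, and 23.4% of the 12948 with one in WT and at 5 weeks, did. In the lowest GC class, which holds Cxcl1, 148 of 1478 genes at 1 week and 14.5% at 5 weeks did so, and in the middle class, which holds Cxcl10, the shares were 15.8% and 19.3%. Their rank from the top of the list moved from 53398 in WT to 20137 and 34831 for Cxcl1 and from 24016 to 14452 and 15864 for Cxcl10. A nearer rank was seen for 26.2% of all genes at 1 week and 27.6% at 5 weeks. A higher percentile, as both showed, was common over lists of such unequal length, at 59.9% and 80.0% of genes. At 1 week its share ran from 81.9% in the lowest GC class to 44.0% in the highest. Both also kept their peak in both KO lists, as did 85.3% of all genes with a WT promoter peak. WT promoter peaks over all genes had a median fold of 4.29 and a lower quartile of 3.44. Cxcl1, at 2.68, lay below that quartile and Cxcl10, at 3.49, just above it. The shares above are not limited to genes with WT peaks as low as these. These are 2 genes, and no test stands behind them.

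Cxcl2, a close relative of Cxcl1 that acts on the same receptor, lies 12.6 kb downstream of it, from 91332897 to 91334935 on the plus strand (ENSMUSG00000058427). No WT peak touched its promoter. A broad peak of 1270 bp, chr5:91332024-91333293, was called at 1 week with fold 2.41 and -log10 q 2.11. A similar peak of 1085 bp, chr5:91331961-91333045, was called at 5 weeks with fold 2.27 and -log10 q 2.45. Both stood near the middle of their lists, at the 51.1 and 51.4 percentile, and both covered the start. Over all genes that gained a promoter peak the median -log10 q was 2.05 at 1 week and 2.36 at 5 weeks, so the Cxcl2 peaks were ordinary gained peaks in height.

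In the 54.7 kb around Cxcl1 and Cxcl2 the WT list held the 1 peak at the Cxcl1 promoter, the 1 week list 4 peaks and the 5 week list 6. A region 6.23 kb upstream of Cxcl1 was called in both KO lists, with -log10 q of 3.33 at 1 week and 2.69 at 5 weeks. Another, 14.7 kb upstream by its 5 week peak, had 3.19 and 1.19. At 5 weeks alone there was a 200 bp peak 5.29 kb downstream of the Cxcl2 start, chr5:91338089-91338288, with fold 2.73 and -log10 q 4.53. It was the strongest distal peak of that block. The promoter of Mthfd2l, a mitochondrial folate enzyme gene whose start lies 40.0 kb downstream of that of Cxcl1 and outside the window, was called in all 3 lists with -log10 q of 16.7, 20.6 and 23.8.

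**Figure D2:**
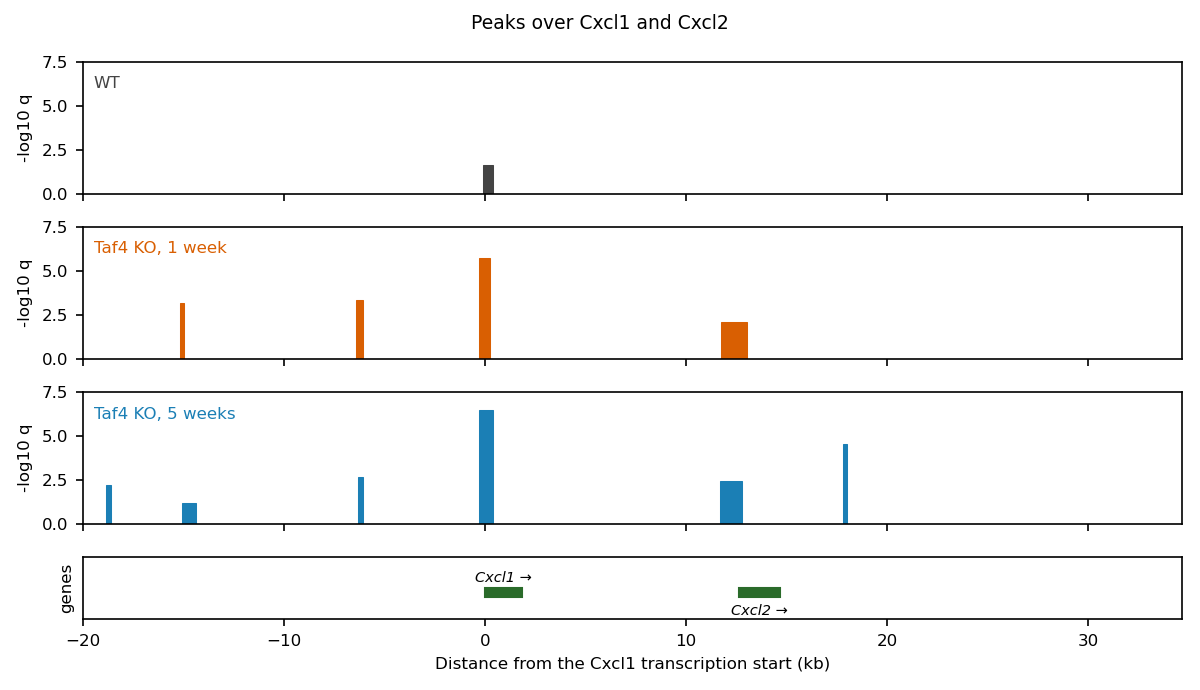
Peaks within 20 kb of Cxcl1 and Cxcl2 against distance from the Cxcl1 start in kb, 1 panel per list. The height of a bar is the -log10 q of a peak and its width the width of the peak; green boxes are gene bodies and arrows the direction of transcription. WT shows the 1 peak at Cxcl1, while both KO lists add peaks at Cxcl2 and upstream of Cxcl1.

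The neighbouring CXC genes of the same array were looked at after their values had been seen. Cxcl5, a further Cxcr2 ligand whose start lies 131.9 kb upstream of that of Cxcl1, had promoter peaks at the 8.02, 82.0 and 77.8 percentile of the WT, 1 week and 5 week lists, with folds of 2.63, 3.11 and 2.93. Cxcl3, 105.1 kb upstream, stood at the 36.4, 85.1 and 69.7 percentile, with folds of 3.07, 3.02 and 2.50. The fold of Cxcl5 was thus higher in both KO lists, like that of Cxcl1, and that of Cxcl3 in neither. Cxcl15, 96.7 kb upstream, was called in both KO lists and not in WT, with -log10 q of 1.62 and 1.29. Pf4, 118.8 kb upstream, was called at 5 weeks only, and Ppbp in no list. By percentile over the 3 lists, the gene outside the set whose promoter peak was most like that of Cxcl1 was Lrat, at a distance of 0.595 percentile points, followed for Cxcl2 by Trhde at 0.935, for Cxcl10 by Nppc at 1.14 and for Reg3g by Gm17175 at 2.12.

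The Cxcl10 locus held 2 regions, both called in all 3 lists. The distal region, chr5:92782161-92783009, lay about 4.7 kb upstream of the start in an intron of Art3. Its -log10 q ran 4.58, 6.20 and 13.1 from WT to 5 weeks, and its fold 3.55, 3.42 and 3.97. It was close to the promoter peak in height in each list.

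Ccl2, the monocyte attractant (ENSMUSG00000035385, chr11:81849073-81850955, plus strand), had no promoter peak. Its locus held a single region about 2.4 kb upstream of the start, in an intron of Gm17268. That region was called in WT, chr11:81846532-81846852, with fold 2.86 and -log10 q 2.08, at the 25.1 percentile. It was called at 1 week with fold 3.09 and -log10 q 4.36, at the 81.3 percentile, and had no peak at 5 weeks, the deepest list. Over the genome 0.397% of merged regions were called in WT and at 1 week and not at 5 weeks. Ccl20 (ENSMUSG00000026166, chr1:83113341-83115742, plus strand) likewise had no promoter peak. A region 6.80 kb upstream of it was called in all 3 lists, with -log10 q of 1.66, 2.45 and 1.92. A region 3.36 kb downstream of the start was called in WT alone with 2.27, and 3 regions farther downstream at 5 weeks alone with 1.70 to 2.25.

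The 5 Reg members lie together on chromosome 6 within 78320879 to 78418868, with Reg3d, the remaining gene of the cluster, among them. With the flanks they form 1 block of 138.0 kb. The WT list held no peak in it, the 1 week list 17 and the 5 week list 13. Of 10 member loci the 5 Reg loci had no WT peak, as did 18.4% of all gene loci and 51.5% of those in the lowest GC class. All 5 had peaks in both KO lists, as did 59.5% of the loci without a WT peak and 70.5% of those in the lowest class. Including the chemokines, 7 of 10 loci had more peaks at 1 week than in WT, beside 33.5% of all loci, and 8 of 10 at 5 weeks, beside 54.0%. Since the 5 Reg loci overlap each other and share peaks, these counts are not 10 separate observations.

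Peaks over the Reg genes were weak. At 1 week their -log10 q ran from 1.33 to 3.43 with a median of 1.75, and their fold from 2.06 to 2.81. At 5 weeks the -log10 q ran from 1.24 to 3.15 with a median of 1.71, and the fold from 1.88 to 2.44. Medians over the whole lists were 2.08 and 2.38 for -log10 q. No Reg peak reached a -log10 q of 5 in either list, and 4 at 1 week and 1 at 5 weeks reached 3.

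At promoters, Reg3g (ENSMUSG00000030017, chr6:78416262-78418868, minus strand) was the Reg member called in both KO lists. Its 1 week peak, chr6:78418428-78418901, covered the start with fold 2.18 and -log10 q 1.65. Its 5 week peak, chr6:78418387-78418782, lay just inside the gene, in an intron by its midpoint, with fold 2.31 and -log10 q 2.55. Reg1 (ENSMUSG00000059654, chr6:78375974-78378661, plus strand) had a 5 week peak of 1338 bp over its start, chr6:78375546-78376883, with fold 2.01 and -log10 q 1.71. Reg3b (ENSMUSG00000071356, chr6:78320879-78323460, plus strand) had a 5 week peak, chr6:78320902-78321284, that began just past the start, with fold 1.96 and -log10 q 1.42. Reg1 at the 30.0 percentile, Reg3b at 15.9 and Reg3g at 30.6 in the 1 week list were low in their lists, and Reg3g at 5 weeks was near the middle, at 53.2. Over all genes with a promoter peak the median percentile was 87.7 at 1 week and 89.7 at 5 weeks.

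Reg2 (ENSMUSG00000023140, chr6:78355149-78358091, plus strand) had no promoter peak, but 2 peaks within the gene at 1 week, with -log10 q of 1.39 and 1.60, and a region 4.2 kb downstream of its start in both KO lists, with 1.75 and 1.87. Reg3a (ENSMUSG00000079516, chr6:78330703-78333833, plus strand) had a single 5 week peak in an intron with a -log10 q of 1.25, among the weakest of the block. Reg3d had a 5 week promoter peak with 1.43. The strongest regions lay between genes. At 1 week they were 1.37 kb upstream of the Reg3g start with 3.43, 6.11 kb upstream of it with 3.27, 5.09 kb upstream of Reg3b with 3.25 and 12.0 kb upstream of Reg2 with 3.09. At 5 weeks the highest lay 6.88 kb downstream of the Reg1 start with 3.15. Of the 4 strongest 1 week regions, the 5.09 kb one was also called at 5 weeks, with 1.56.

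**Figure D3:**
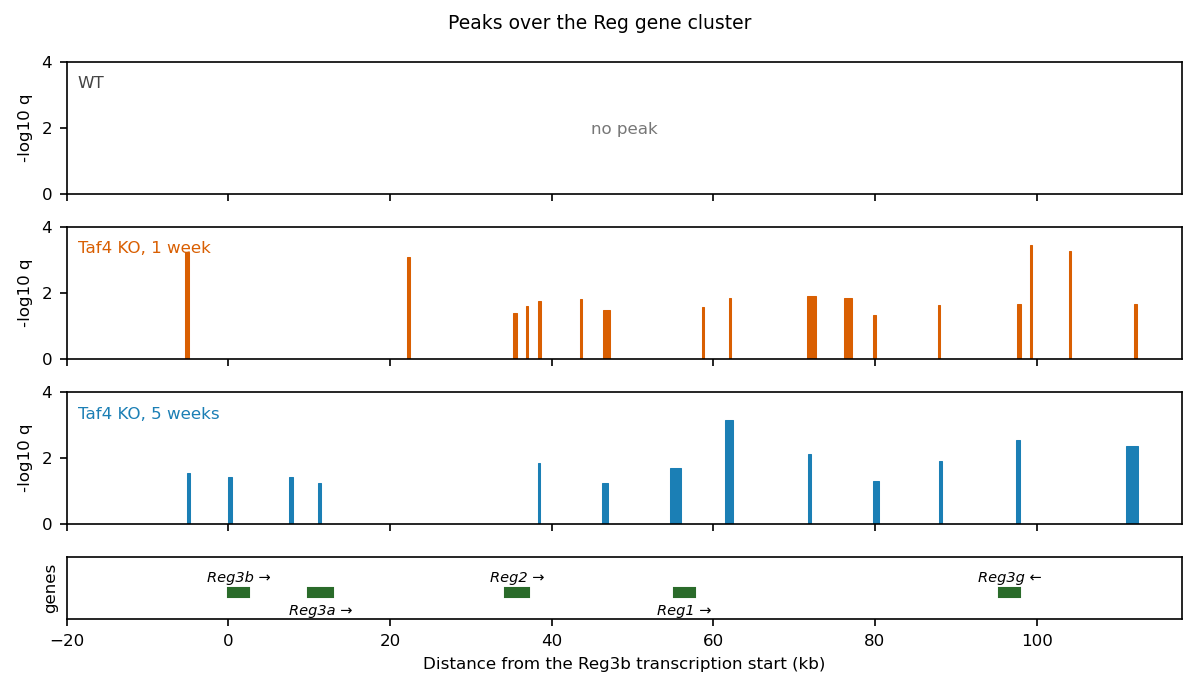
Peaks over the Reg cluster and its 20 kb flanks against distance from the Reg3b start in kb, 1 panel per list. The height of a bar is the -log10 q of a peak and its width the width of the peak; green boxes are the 5 member genes and arrows their direction of transcription. The WT panel is empty, and the 17 peaks at 1 week and 13 at 5 weeks stay at or below 3.43 and are spread along the block rather than gathered at the starts.

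Peaks of the 3 lists that overlapped were merged into regions, 21 in the Reg block and 14 in the chemokine blocks. In the Reg block 9 regions were in both KO lists, 8 at 1 week only and 4 at 5 weeks only. A 5 week peak overlapped 9 of the 17 peaks at 1 week, or 52.9%, beside 37.8% of all 1 week peaks that lacked a WT overlap. In the chemokine blocks 4 regions were in all 3 lists, 3 in both KO lists only, 5 at 5 weeks only, 1 in WT only and 1 in WT and at 1 week. Genome-wide, 15.7% of 233507 regions were in all 3 lists and 17.9% in both KO lists only.

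The surroundings of the Reg block had the same features, a comparison added after the peaks had been seen. The block lies within a stretch of chromosome 6, chr6:78064398-79951086, that held no WT peak over 1887 kb, against a median distance of 14.7 kb between WT peaks. Only 42 of 60878 such distances were as long. The stretch held 230 peaks at 1 week and 161 at 5 weeks, and besides the 5 members its protein-coding genes were Gm5576 and Reg3d. At 1 week the Reg block held 12.3 peaks per 100 kb and the rest of the stretch 12.2. At 5 weeks the values were 9.42 and 8.46. Median -log10 q was also alike, 1.75 in the block and 1.76 outside it at 1 week, and 1.71 and 1.78 at 5 weeks. In the rest of the stretch 90 of 213 peaks at 1 week, or 42.3%, were overlapped by a 5 week peak. The KO peaks over the Reg genes thus stood close, in density and in height, to those of the gene-poor DNA around them.

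Peak density moved with GC content over all gene loci. In the lowest class the WT mean was 1.36 peaks per 100 kb, and the KO means 7.34 and 5.44, whereas in the middle class it was 4.61, 4.44 and 6.40. The 4 chemokine blocks together, of 181.2 kb, held 3.31, 4.41 and 6.62. What part of the Reg difference came with base composition, depth or gene activity cannot be told apart with 1 library a group.

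**Figure D4:**
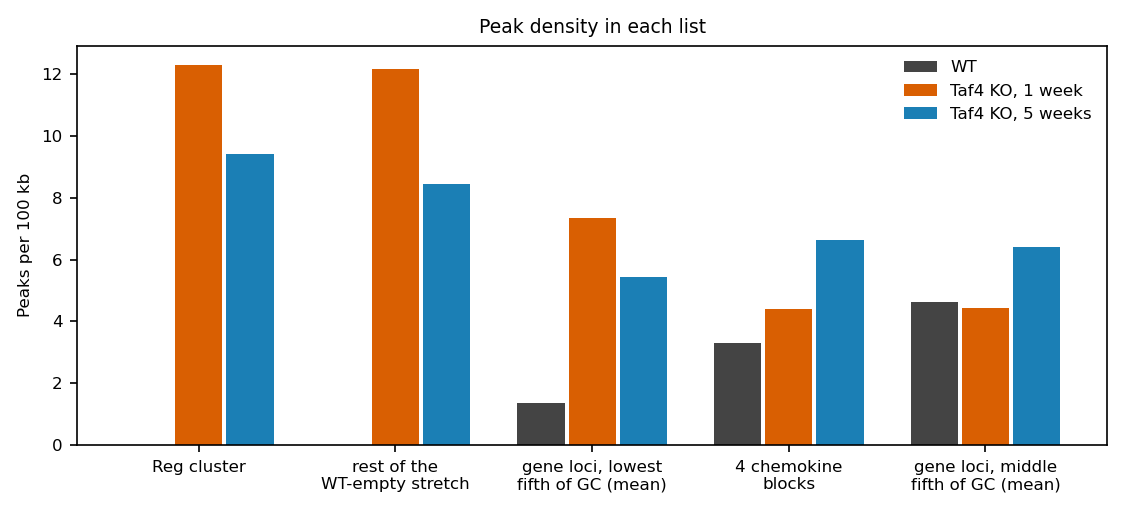
Peaks per 100 kb in each list over the Reg cluster, the rest of the stretch of chromosome 6 without a WT peak, the loci of genes in the lowest and the middle class by surrounding GC content (means over genes), and the 4 chemokine blocks. Each bar is 1 library. The Reg cluster and the rest of the stretch have nearly the same height at 1 week, 12.3 and 12.2.

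Reads that fit several places were discarded before peak calling, and Reg genes belong to a family of related genes. Between Reg promoters the alignment identity over 250 bases ran from 45.1% to 68.4%, the highest between Reg3b and Reg3g, while Cxcl1 and Cxcl2 shared 50.3%. Pairs of a Reg and a chemokine promoter gave 40.9% to 48.4%, so most Reg pairs were little more alike than those. Every 50-base window of the 250 bases before the start was unique in the genome for all 10 genes, as for 86.7% of all genes. Over the longer window used for promoter calls the unique share was 81.8% for Reg3b, 87.8% for Ccl20 and at least 97.05% for the other members. Of 50-base windows over the Reg block 78.5% were unique, over the Cxcl1 and Cxcl2 block 84.3%, and over each of the others at least 97.2%. The read length was not given in the sources used here, and 50 bases was assumed. Empty promoters of Reg2 and Reg3a could therefore have been called at this length.

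In lists made more comparable few Reg peaks were left. Cutting the lists to the 60898 strongest peaks each left 4 peaks in the Reg block at 1 week and 1 at 5 weeks, and depth scaling left 4 and 0, with 0 in WT throughout. Promoter peaks then remained at Cxcl1 and Cxcl10 in all 3 lists and at no other member under either setting. The chemokine blocks kept 6 WT peaks, 7 peaks at 1 week and 4 at 5 weeks under both, so the 5 week count was below that of WT and no longer above it. Most of the Reg and Cxcl2 peaks were thus among those that only the longer and deeper KO lists reached, and a locus without a peak in the WT list may hold accessibility that was not detectable at its depth.

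**Figure D5:**
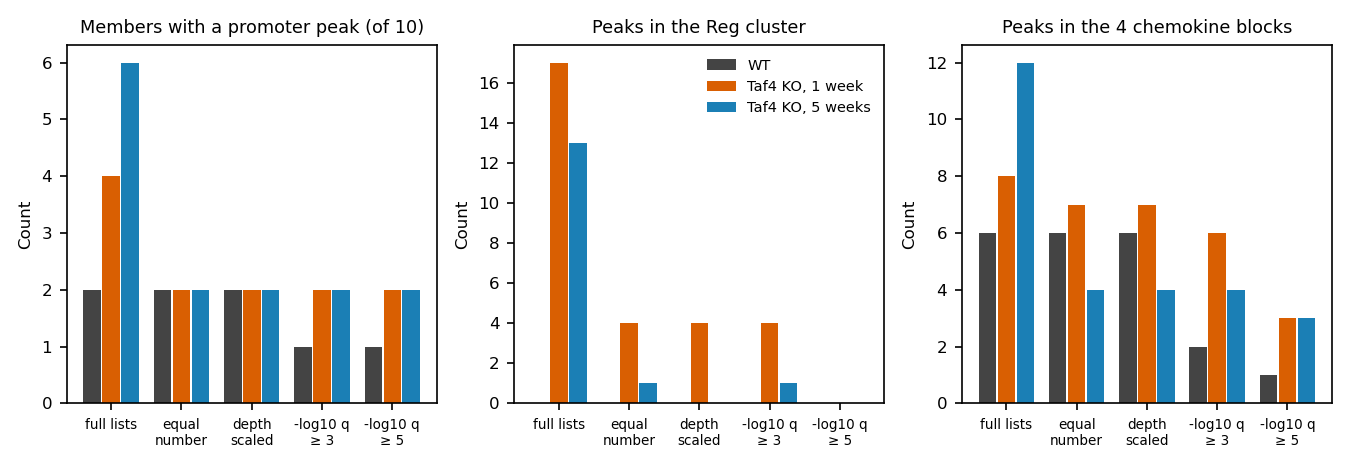
Counts in each list under 5 ways of reading the lists: as deposited, the 60898 strongest peaks of each, scaled to WT depth, and cut at 3 or 5 in -log10 q. The panels give members with a promoter peak, peaks in the Reg cluster and peaks in the 4 chemokine blocks, and each bar is 1 library. Reg peaks fall from 17 and 13 to at most 4 and 1, whereas the 2 promoters of Cxcl1 and Cxcl10 stay called in both KO lists in every setting shown.

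Genes related to the members by family were called as follows. Of 28 matched other Reg and chemokine genes, the WT, 1 week and 5 week lists held a promoter peak for 6, 6 and 10. Over all protein-coding genes 59.0%, 55.9% and 65.6% had one, so this family stood below genes at large in each list. Cxcl12, which retains Cxcr4-bearing cells, was called in both KO lists only, with -log10 q of 3.24 and 4.39. Ccl22 was called in WT only with 2.36, Cxcl16 in WT and at 5 weeks with 2.24 and 2.20, and Pf4 at 5 weeks only with 1.80. Of 6 matched receptors, 2, 1 and 1 were called, beside the same shares of all genes. Cxcr2, the receptor of Cxcl1 and Cxcl2, had a promoter peak in WT only with 1.81, and Extl3, a reported Reg receptor, had one in all lists with 20.6, 5.49 and 21.3. Promoters of Cxcr1, Cxcr3, Ccr2 and Ccr6 had none.

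The NF-kB and interferon genes that act upstream of these factors nearly all had a promoter peak in each list, and those of the IL-6 and STAT3 pathway did so about as often as genes at large. Of 25 NF-kB and interferon pathway genes, 25, 24 and 25 had a promoter peak. Irf7, an interferon-induced activator, lacked one at 1 week and had -log10 q of 3.01 in WT and 9.33 at 5 weeks. Stat2, Nfkbib, an inhibitor of NF-kB, and Ifngr1, a subunit of the interferon gamma receptor, kept theirs, with 29.4, 16.7 and 43.8 for Stat2. Of 12 IL-6 and STAT3 pathway genes, 7, 7 and 8 were called, beside 59.0%, 55.9% and 65.6% of all genes. Il22ra1, part of the interleukin 22 receptor through which Reg3 genes are induced in gut, was added at 5 weeks with 1.56. Stat3 had 29.1, 9.79 and 30.1, and Jak1 and Jak2 were called in all lists.

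Markers of immune, endothelial and stellate cells had more peaks in the KO lists, whereas those of acinar cells had fewer at 1 week and more at 5 weeks. Summed over their loci, immune markers had 23, 53 and 60 peaks in the same order of lists, and their promoter calls were Cd74 in WT, Emr1 and Ptprc at 1 week, and Emr1 and Csf1r at 5 weeks. Of 6 endothelial markers, 1, 3 and 5 had a promoter peak, with 15, 32 and 60 locus peaks. Of 6 stellate markers, 1, 1 and 4 did, with 16, 20 and 34. Of 10 markers of acinar cells, the exocrine cells that make most Reg protein, 2, 1 and 3 did, with 20, 11 and 29, and the enzyme genes Cpa1, Cela1, Cela2a, Amy2a5, Pnlip, Ctrb1 and Cel had none in any list. Over all protein-coding genes 59.0%, 55.9% and 65.6% had a promoter peak, and the KO lists as a whole held 2.47 and 2.49 times as many peaks as WT. Whether the share of immune, endothelial, stellate or acinar cells differed between libraries was not tested. Nor was the part of these cells in the chemokine and Reg peaks.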

How the data were processed

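ATAC-seq was performed on islet cells, 1 library per group, with groups taken from the genotype and time labels. The authors aligned reads to mm9 with Bowtie 1.0.0, keeping unique alignments, and called broad peaks per library with MACS2 2.1.1 (both versions from the submitters' processing notes, which also list bcl2fastq 2.17.1.14). A control library, duplicate removal and a shift to the insertion site were not given in the sources used here. The deposited lists give each peak's position, its fold over local background (a ratio), its -log10 p and its -log10 q, averaged over the peak, and no read counts. Each value depends on the depth of its library. Values were set side by side between lists as folds, -log10 q and within-list percentiles, with depth and list length given beside them and scaled as alternatives.

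Members and gene lists were chosen with earlier results of these data known. Genes and 46015 starts came from GENCODE for NCBIM37, and peaks were shared from 1 bp of overlap. Depth was read from the background that fold and p together fix for a position, as the first percentile of each list. Since fold and p are averages over a peak, the recovered reads, depth ratios and scaled p are approximate. Depth scaling divided pileup and background by the ratio to WT and kept peaks at a Poisson -log10 p of 2.92, the lowest in WT. GC content was taken over 1 Mb. The RefSeq promoter table, on GRCm38, matched 9 of 10 members, each found exactly in NCBIM37, and sequences were printed from NCBIM37. Promoters were aligned globally with 1 for a match, -1 for a mismatch, -3 to open and -0.5 to extend a gap. Named were all members, Reg3d, at most 4 genes per further list (calls that differed between libraries first, then by -log10 q) and the nearest gene in percentile to each member called in 2 or more lists; Cxcl3, Cxcl5, Cxcl15, Ppbp and genes named as uncalled or as markers were added after their values were seen. Cxcl11, Ccl28, Ackr1 and Spi1 had no match, and 1 immune marker is not reported here by name. Counting and depth recovery were checked on simulated lists. Python 3.11.15 with pandas 2.3.3, numpy 2.4.6 and scipy 1.17.1 was used. Other cut-offs, windows, flanks and overlaps were tried as alternatives.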

Additional observations from a re-analysis of the deposited data

Results flagged for a closer look

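The region about 2.4 kb upstream of Ccl2 was called in WT and at 1 week, with fold 2.86 and 3.09, and not at 5 weeks. Its percentile by -log10 q was 56.2 points above the WT value at 1 week, read across lists of 60898 and 150354 peaks. Setting the absent 5 week peak to 0 gave a difference of -25.1 points, which is below 0 for any WT peak that is not called. The difference between the times was not tested.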

How the results depend on the processing

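No paired analysis was possible because each group holds 1 library, and for the same reason no replicate could be left out. Requiring a -log10 q of at least 3 or 5 left a promoter peak at 1 member in WT and at 2 members in each Taf4 KO list. Equal numbers of peaks and depth scaling left 2 in each list. Reg block peaks at 1 week became 4 at a -log10 q of 3, with equal numbers and with depth scaling, and 0 at 5. At 5 weeks they became 1, 1, 0 and 0, in the same order, and 22 with 50 kb flanks. Chemokine block peaks in WT became 2 and 1 at a -log10 q of 3 and 5, and 12 with 50 kb flanks. At 1 week they became 3 at 5, and 13 with 50 kb flanks. At 5 weeks they became 4 at 3, with equal numbers and with depth scaling, 3 at 5 and 23 with 50 kb flanks. Regions in all 3 lists fell from 4 to 2 and 1 at a -log10 q of 3 and 5, and the WT-only region to 0 at both. Regions in both KO lists and not WT numbered 1 at 3 and 2 at 5 in place of 12, but none of the 12 was among them. The 1 at 3 was the Cxcl1 promoter. The 2 at 5 were that promoter and the distal Cxcl10 region, whose WT peaks fell below the cut. The count was 0 with equal numbers, 0 with depth scaling and 6 with reciprocal overlap of 50%. The other 34 values stayed within 1.5 times the reported count, among them all those under a wider or narrower promoter window or the most upstream start alone. The wider window, 2500 bp upstream to 500 bp downstream, did change which members were called. It reached the distal Ccl2 region, so Ccl2 counted as called in WT (-log10 q 2.08) and the 1 week list (4.36). Reg3a counted as called at 5 weeks with 1.43, through the peak at the Reg3d promoter. The Reg3g value at 1 week became 3.43, at the 75.3 percentile, from 1.65 at 30.6. Calls under the narrower window and the most upstream start were unchanged. The comparison of chemokine block peaks at 5 weeks with WT turned from 12 against 6 to 4 against 6 with equal numbers and with depth scaling, and at a -log10 q of 3 or 5 it was 4 against 2 and 3 against 1. The Cxcl10 promoter's -log10 p turned from higher to lower than WT at both times with depth scaling, 6.11 and 6.78 against 7.27. Depth, read as the first percentile of the recovered background, was below 10 reads in every list, which limits weak peaks most.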
